A study of Sus scrofa with 4 samples.

Results

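ACVR1, a receptor for bone morphogenetic proteins (BMPs), and genes of iron handling were followed in the liver of piglets that ate a diet with or without added L-carnitine. The set holds 10 genes, namely ACVR1, HAMP, TF, TFRC, TFR2, FTH1, FTL, CP, HPX and SLC40A1, and its members were every probe set annotated to a single gene of that list, 10 of 23999 probe sets on the array. These stand for 7 genes, since CP, TFR2 and SLC40A1 have no annotated probe set and were not analysed here. The list was selected on signals of these same arrays, with the carnitine to control difference of ACVR1 in view. The values of the members in that contrast are therefore given as a description with no test.

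Male crossbred pigs, (German Landrace x Large White) x Pietrain, started at 4 weeks of age and were 7 weeks old at sampling. All 16 pigs ate the same basal diet for 21 days, and for the 8 pigs of the carnitine group 500 mg L-carnitine was added per kg of diet. Livers were taken 2.5 h after a meal, and each RNA pool was made from 4 pigs, with 2 carnitine pools and 2 control pools, each on 1 Affymetrix porcine GeneChip. A pool gives no spread between animals, so the spread within a diet is the difference between its 2 pools. The values are MAS5 signals, an arbitrary linear scale on which levels of different probe sets cannot be compared. Fold changes are differences of mean log2 signals, carnitine over control, with the standard error (SE) from limma. That SE draws the variance of a probe set towards that of probe sets of similar signal, so it is not the spread between pools alone. For the gene IREB2, for example, it was 0.24, against 0.08 in an analysis of variance on its pools alone.

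The liver sets the iron level of the body. Hepatocytes secrete hepcidin, the peptide made from HAMP, which binds the iron exporter ferroportin (SLC40A1) and has it degraded, so that less iron enters the plasma. HAMP transcription is driven by BMP ligands, through type I receptors such as ACVR1 and BMPR1A and the SMAD proteins, and by interleukin 6 through STAT3. Transferrin (TF) carries iron in plasma and is taken up by the receptors TFRC and TFR2, ferritin (FTH1 and FTL) stores it in the cell, ceruloplasmin (CP) oxidizes it for export, and hemopexin (HPX) binds free heme.

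The whole array gives the scale for these values. The median signal lay between 109 and 114 on the 4 arrays, and the median of all probe sets, as a geometric mean over the arrays, was 111. The ratio of 3' to 5' signal of the GAPDH control, which reflects RNA integrity and labelling, was 16.1 and 18.7 on carnitine arrays and 11.6 and 12.5 on control arrays, and that of actin was 136 and 157 against 86.7 and 91.2. These ratios moved with the diet, and their part in the differences below was not tested. Markers of hepatocytes were bright, with 6 of 6 measured. Their summed signals overlapped between the diets, as did those of Kupffer cell, endothelial, stellate cell and T and NK cell markers (7, 6, 7 and 5 genes measured). Such sums are led by their brightest probe sets. Control pool 2 stood apart in the stellate cell sum, at 10274.5 against 3160 in control pool 1 and 4218 and 4017 with carnitine. The endothelial sum was also highest there, at 4063. In that pool ACTA2 gave 5533, against 542 in control pool 1, while COL1A2 was lowest there at 345. C1QA and C1QC of the Kupffer cell list were lower in both carnitine pools, and CD14 was higher. In tissue RNA, fewer cells of a type and less RNA per cell cannot be told apart.

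ACVR1 signals were lower with carnitine at both of its probe sets, with every carnitine pool below every control pool. Probe set Ssc.9902.1.A1_at gave 669 and 440 with carnitine and 2227 and 1715 in controls. The diets were well apart, with the brightest carnitine pool far below the dimmest control pool. The mean signal was 554 ± 161 (SD, n = 2 pools) against 1971 ± 362 (SD, n = 2 pools), a log2 fold change of -1.85 (SE 0.27), which is a 3.60-fold lower signal. Probe set Ssc.9902.2.S1_at, which was closer to the array median, gave 146 and 80.4 against 261 and 405, a log2 fold change of -1.59 (SE 0.41). The diets did not overlap here either.

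The probe sets of ACVR1 differed in the order of the control pools, since pool 1 was the higher at the first and pool 2 at the second, while carnitine pool 2 was the lowest pool at both. The log2 ratio of the first to the second probe set was 2.19 and 2.45 with carnitine and 3.09 and 2.08 in controls, so that it spread more between the control pools than between the diets. With any pool left out, the log2 fold change stayed between -2.15 and -1.55 at the first probe set and between -2.02 and -1.16 at the second. Among the 11999 probe sets above the median signal, 19 had a log2 fold change at or below that of the first, which is counted among them, and 25 at or below that of the second.

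**Figure D1:**
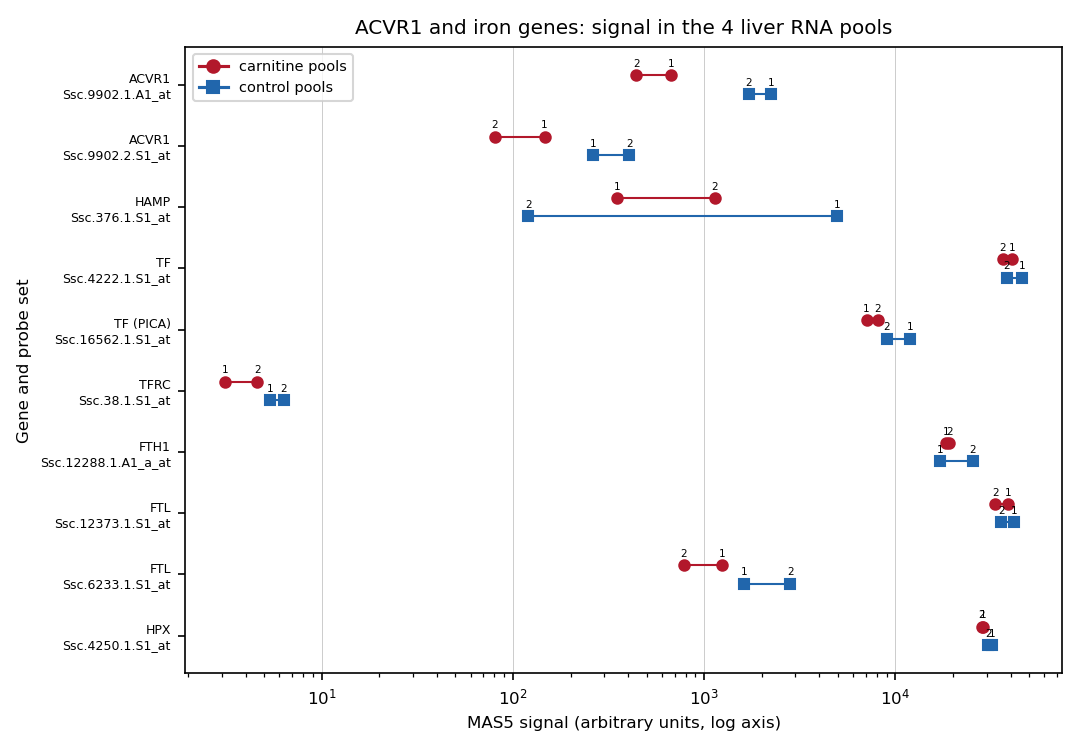
MAS5 signal of the 10 probe sets in arbitrary units on a log axis, shown for each of the 4 pools, with red circles for the carnitine pools, blue squares for the control pools, pool numbers above the points and a line between pools of the same diet. The red and blue lines of both ACVR1 probe sets do not overlap, whereas the blue line of HAMP runs from 120 to 4968 and encloses the red one.

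HAMP, the hepcidin gene, differed far more between pools of the same diet than between the diets. Its probe set gave signals of 349 and 1139 with carnitine and 4968 and 120 in controls. Both the highest and the lowest value were thus control pools, and the carnitine pools lay between them. The control pools differed by 41.2-fold and the carnitine pools by 3.26-fold, whereas the median over the 11999 brighter probe sets was 1.25-fold and 1.17-fold. Only 3 of these brighter probe sets, HAMP included, had a ratio between the control pools as large as that of HAMP, the others being GALP and an unnamed probe set, which were lowest in control pool 1.

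The mean HAMP signal was 744 ± 559 (SD, n = 2 pools) with carnitine and 2544 ± 3428 (SD, n = 2 pools) without, and the log2 fold change was -0.29 with an SE of 1.50. Leaving out control pool 1 gave 2.39, and leaving out control pool 2 gave -2.98, so that its direction rested on which control pool was kept. It was also above 0, at 0.56, without carnitine pool 1, and -1.15 without carnitine pool 2. No direction can be given for hepcidin mRNA from these arrays, and a change of several-fold would not have been detectable.

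Transferrin has a pair of entries in the gene table used here, which lie next to each other on the same chromosome. The entry without a synonym was measured by Ssc.4222.1.S1_at, with signals of 40770 and 36411 with carnitine against 45973 and 38119 in controls, a log2 fold change of -0.12 (SE 0.22). The diets overlapped. The other entry carries the synonym PICA, the inhibitor of carbonic anhydrase, a plasma protein related to transferrin. Its probe set, Ssc.16562.1.S1_at, gave 7066 and 8075 against 11884 and 9017, so that both carnitine pools were below both control pools (log2 fold change -0.45, SE 0.21). Leaving out control pool 1 gave -0.26.

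TFRC, the transferrin receptor of most cells, was near the bottom of the array, with signals of 3.13 and 4.61 against 5.40 and 6.34. The carnitine pools were lower, with a log2 fold change of -0.62 (SE 0.97), but at such signals the value depends on how dim values are treated. It was -0.03 with signals raised to the 25th percentile of their array and -0.04 with 64 added to every signal. Whether TFRC mRNA was present at all cannot be read from these values without detection calls.

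The ferritin subunits gave unlike values at different probe sets. The heavy chain gene FTH1, whose product oxidizes iron for storage, had signals of 18478 and 19084 with carnitine and 17110 and 25424 in controls. The carnitine pools lay within the range of the control pools (log2 fold change -0.15, SE 0.24). The light chain gene FTL, which helps to form the iron core, had 38828 and 33291 against 41634 and 35718 at Ssc.12373.1.S1_at, where the diets overlapped as well (log2 fold change -0.10, SE 0.21).

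At the other FTL probe set, Ssc.6233.1.S1_at, the signals were 1237 and 780 with carnitine against 1623 and 2812 in controls. Both carnitine pools were lower there, by a log2 fold change of -1.12 (SE 0.33). With any pool left out the value ran from -1.52 to -0.72, but since the pools do not overlap its sign could not turn. The pair of FTL probe sets thus gave a 2.18-fold and a 1.07-fold lower signal for the same annotated gene.

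HPX, which carries free heme to the liver, gave 28760 and 28312 with carnitine and 32002 and 30543 in controls. The pools of the diets did not overlap, but the difference was small, with a log2 fold change of -0.13 (SE 0.20).

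FTH1, HPX, the brighter FTL probe set and the TF entry without a synonym are in the brightest 1% of the array. Over those 240 probe sets the median log2 fold change was -0.13, and 81.7% of them were below 0, against 51.4% of all probe sets. The 99th percentile of signal was 14222 and 13249 with carnitine against 15002 and 15144 on control arrays. The values of the 4 bright members, from -0.15 to -0.10, are close to that median. After quantile normalization, which gives all arrays the same distribution, they were -0.02 for FTH1, -0.0046 for HPX, 0.05 for FTL and 0.05 for TF, so that the direction of FTL and TF turned.

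**Figure D2:**
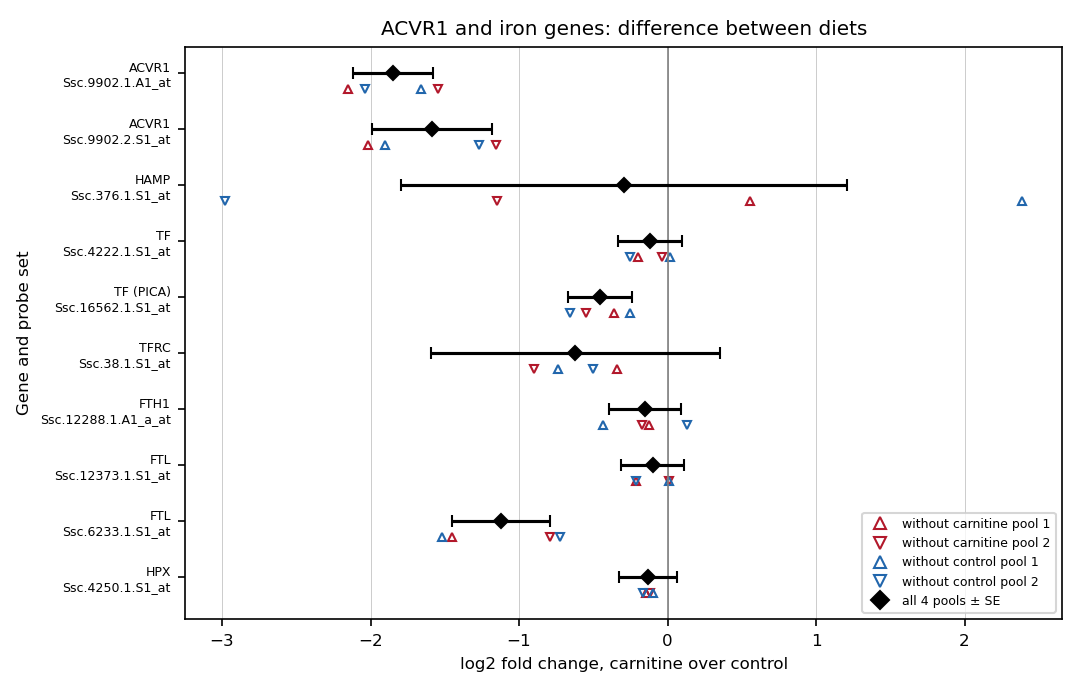
Log2 fold change of the 10 probe sets, carnitine over control, with black diamonds and bars for the value of all 4 pools and its standard error, and open triangles for the value with each pool left out. The triangles of ACVR1 and of the FTL probe set Ssc.6233.1.S1_at stay on the left of 0, as they must where the pools do not overlap. Those of HAMP run from -2.98 to 2.39.

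Counted together, the 10 probe sets had a log2 fold change below 0, as did 51.4% of all probe sets. This count holds HAMP, which was above 0 without control pool 1 or carnitine pool 1, FTL and TF, which turned after quantile normalization (0.05 each), FTH1, which was 0.13 without control pool 2, and TFRC, whose signals were too dim to read. The pools of the diets did not overlap for 6 of them, all lower with carnitine (ACVR1 at both probe sets, the PICA entry of TF, TFRC, HPX and FTL at Ssc.6233.1.S1_at), where 20.4% of all probe sets were lower and 19.2% higher in this way. A 2-fold difference was reached by 3, those of ACVR1 and FTL, all lower, against 7.92% lower and 8.03% higher over the array. Since ACVR1 was chosen for its difference, nothing is read from these counts.

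Another 7 probe sets list a second gene beside TF or FTH1, so that none of them can be given to a member. For 5 of them the other gene is HDHD2 and for 2 LOC100515857. Their log2 fold changes ran from -1.30 to 0.98, and only 2 were above the median signal. Of these, Ssc.6171.1.A1_at (HDHD2 or FTH1) gave 610 and 667 with carnitine against 566 and 476 in controls, and Ssc.1137.1.S1_at (LOC100515857 or TF) gave 597 and 963 against 223 and 1030.

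The other genes of the pathway were taken from 4 lists of 113 genes, 66 of which have a probe set, with the brightest probe set standing for a gene. BMP6, HJV, HFE, TMPRSS6, SMAD6 and SMAD7, which are central to hepcidin control, and STEAP3 are among the genes not analysed here. No gene of the lists passed an adjusted p of 0.05 in limma, in either direction, and over the array 0.0% of probe sets passed it in the lower and 0.00417% in the higher direction. At an unadjusted p under 0.05 there were 2 higher (3.03%) and 3 lower (4.55%), against 6.56% and 3.99% of the 6765 named genes and 4.72% and 3.93% of all probe sets. This count was 2 in all without carnitine pool 2 and 11 without control pool 1 or control pool 2, and the methods' analysis of variance gave 3. The carnitine pools were lower than both control pools for 21 of the 66 genes (31.8%) and higher for 14 (21.2%), where over the named genes the shares were 21.0% and 21.5%.

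Among 23 genes of BMP-SMAD signalling, 17 had a log2 fold change below 0 and 6 above, with a median of -0.16, where the median over 6765 named genes was -0.01. Without control pool 2 the median of the list was -0.03. At an unadjusted p under 0.05 in limma, 1 gene was higher (4.35%) and 2 were lower (8.7%). The shares were 4.72% and 3.93% of all probe sets and 6.56% and 3.99% of the named genes. A 2-fold difference was reached by ID1, ACVR2B and ID4 in the higher and BMPR1B in the lower direction, the last 3 of them below the median signal. These are 13.0% and 4.35% of the list, against 8.03% and 7.92% of all probe sets and 4.76% and 4.17% of the named genes. ID1, a transcription regulator and direct target of BMP-activated SMADs, had signals of 1722 and 2829 with carnitine against 730 and 1040 in controls. Both carnitine pools were above both control pools, opposite in direction to ACVR1, with a log2 fold change of 1.34 (SE 0.30, adjusted p = 0.356 from limma). The value for ID1 ran from 0.98 to 1.70 with any pool left out, but with pools that do not overlap its sign could not turn. ID3 of the same list overlapped between the diets, at 1802 and 1486 against 1721 and 2014 (log2 fold change -0.19, SE 0.20). ID2, which is below the median signal, gave 0.33 (SE 0.42).

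BAMBI, a decoy receptor that lacks the kinase part and dampens BMP signals, gave 110 and 121 against 218 and 200 (log2 fold change -0.86, SE 0.32, adjusted p = 0.517 from limma). Its dimmer probe set gave 15.85 and 6.30 against 31.65 and 58.0 (-2.10, SE 0.79). It is far below the array median, where values depend on how dim signals are treated, so its size is not read. ENG, a co-receptor of endothelial cells, gave 838 and 598 against 982 and 1256 (log2 fold change -0.65, SE 0.25, and -0.41 without carnitine pool 2), and SMAD1, which carries the signal to the nucleus, 796 and 649 against 912 and 1117 (-0.49, SE 0.22). Among other type I receptors, named here after their values were seen, BMPR1A gave 422 and 459 against 476 and 443 and overlapped between the diets, while ACVR1B gave 1964 and 1517 against 2833 and 2092 (log2 fold change -0.50, SE 0.23).

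**Figure D3:**
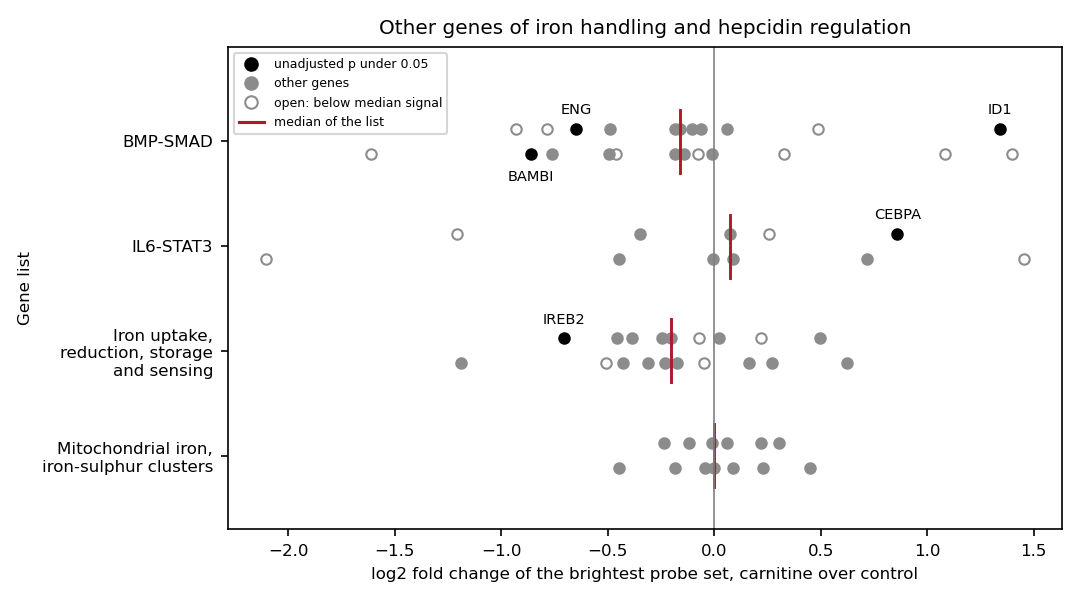
Log2 fold change of the brightest probe set of 66 genes in 4 lists, carnitine over control, with black points for an unadjusted p under 0.05, grey points for other genes, open points for genes below the median signal and a red line at the median of each list. ID1 and CEBPA lie on the right, at 1.34 and 0.86, and BAMBI, ENG and IREB2 on the left.

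The interleukin 6 and STAT3 branch showed no common direction, with 6 of 11 genes above 0 and 5 below and a median of 0.07. That median was -0.15 without carnitine pool 1 and -0.03 without control pool 1. STAT3, the factor that carries the signal to the HAMP promoter, differed little, with 4324 and 4176 against 4080 and 3930 (log2 fold change 0.09, SE 0.18). SOCS3, a target and inhibitor of the same pathway, was too dim to read, at 3.09 and 5.18 against 7.46 and 11.5. The interleukin IL6 itself was also far below the array median, with 12.8 and 2.25 against 22.6 and 23.7. Its log2 fold change of -2.11 (SE 1.03) was -0.03 with the floor at the 25th percentile and -0.29 with the offset of 64, so its size is not read.

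CEBPA, a hepatocyte transcription factor that also drives HAMP, gave 414 and 516 with carnitine against 215 and 301 in controls (log2 fold change 0.86, SE 0.28, adjusted p = 0.469 from limma). Its dimmer probe set gave -0.03 (SE 0.39). CEBPB, which acts in the acute phase response, went the other way at 2760 and 3241 against 3830 and 4359 (-0.45, SE 0.19). IL1R1, the receptor of interleukin 1, gave 2982 and 2869 against 2597 and 1222, a log2 fold change of 0.72 that was 0.17 once control pool 2 was left out and 1.26 once control pool 1 was.

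Of 19 genes of iron uptake, reduction, storage and sensing, 13 were below 0 and 6 above, with a median of -0.21, which was -0.06 without control pool 1. IREB2, the iron regulatory protein 2 that stabilizes TFRC mRNA and holds back ferritin translation when iron is low, gave 299 and 268 with carnitine against 471 and 451 in controls. The pools of a diet lay close together and the diets apart, with a log2 fold change of -0.70 (SE 0.24, adjusted p = 0.484 from limma). ACO1, the iron regulatory protein 1, went the other way at its brightest probe set, with 2845 and 3466 against 1842 and 2687 (log2 fold change 0.50, SE 0.24). Without control pool 1 that value was 0.22 and without control pool 2 it was 0.77, and the next probe set gave 0.12 (SE 0.22).

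SLC11A2, the transporter that moves iron out of endosomes, gave 925 and 1134 against 486 and 909 (log2 fold change 0.62, SE 0.32), a value that fell to 0.17 without control pool 1 and was 1.07 without control pool 2. The heme oxygenases, which release iron from heme, gave small lower values, with 1987 and 1931 against 2418 and 2708 for HMOX2 (-0.39, SE 0.18) and 992 and 929 against 1307 and 1082 for HMOX1 (-0.31, SE 0.20, and -0.17 without control pool 1). SLC39A14, which takes up iron that is not bound to transferrin, overlapped between the diets at 808 and 930 against 1109 and 656. SCARA5, a ferritin receptor, was the only gene of this list past 2-fold (log2 fold change -1.19, SE 0.68), with 110 and 109 against 112 and 552, so that control pool 2 stood apart from the other pools. The list thus had 5.26% lower and 0.0% higher at 2-fold. The shares were 7.92% and 8.03% of all probe sets, and 4.17% and 4.76% of the named genes by their brightest probe set. HP, the haptoglobin that binds free hemoglobin, had a log2 fold change of -0.17 (SE 0.21), which was -0.06 without control pool 1 and -0.01 after quantile normalization.

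Genes of mitochondrial iron and iron-sulphur clusters were nearly balanced, with 6 of 13 above 0, 7 below and a median of -0.0026, which took both signs when each pool was left out. None of them had an unadjusted p under 0.05 in limma, which 4.72% of all probe sets reached in the higher and 3.93% in the lower direction. FDX1, an iron-sulphur protein that hands on electrons, gave 5863 and 4829 against 6779 and 7792 (log2 fold change -0.45, SE 0.20), with -0.33 (SE 0.20) at its second probe set. SLC25A37, mitoferrin 1, which brings iron into mitochondria, gave 1020 and 721 against 674 and 586 (0.45, SE 0.25, and 0.20 without carnitine pool 1), and -0.08 (SE 0.43) at its dimmer probe set. ISCU, the scaffold on which the clusters are built, had a value of -0.23 (SE 0.19), which was -0.10 without control pool 1. ISCA1, which helps to deliver them, had one of 0.30 (SE 0.24), which was 0.05 without control pool 2 and 0.09 without carnitine pool 2.

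Among 15 other plasma proteins of hepatocytes, which share the upper end of the signal range with HPX and TF, 13 were below 0 and 2 above. The median was -0.12. For 7 of them (46.7%) both carnitine pools were below both control pools, against 20.4% of all probe sets and 21.0% of named genes. None had an unadjusted p under 0.05 in limma, where 4.72% of all probe sets were higher and 3.93% lower at that threshold. The values of HPX and TF without a synonym, -0.13 and -0.12, are thus like those of plasma proteins at large.

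The genes with a pattern over the 4 pools most like that of ACVR1 were sought by the distance between log2 signals centred on their mean. Searched were 6259 probe sets with 1 symbol and a mean log2 signal above the array median in the higher diet. A gene dim with carnitine could thus enter through its control pools alone, as LOC100515383, DDX50, KLF11 and FAM129A did. For the first ACVR1 probe set the nearest were GPAM, which starts triglyceride synthesis, LOC100515383, DDX50, CYP2C91 and FNDC1, at distances of 0.40 to 0.55. GPAM gave 423 and 227 with carnitine against 1008 and 767 in controls. For the second probe set they were KLF11, ALAS2, FAM129A, TRAPPC4 and KLF9, at distances of 0.16 to 0.44. KLF11, a transcription factor, gave 88.5 and 47.8 against 175 and 272. The gene sets of the 2 probe sets share no member, and with 4 pools such a likeness is a description.

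**Figure D4:**
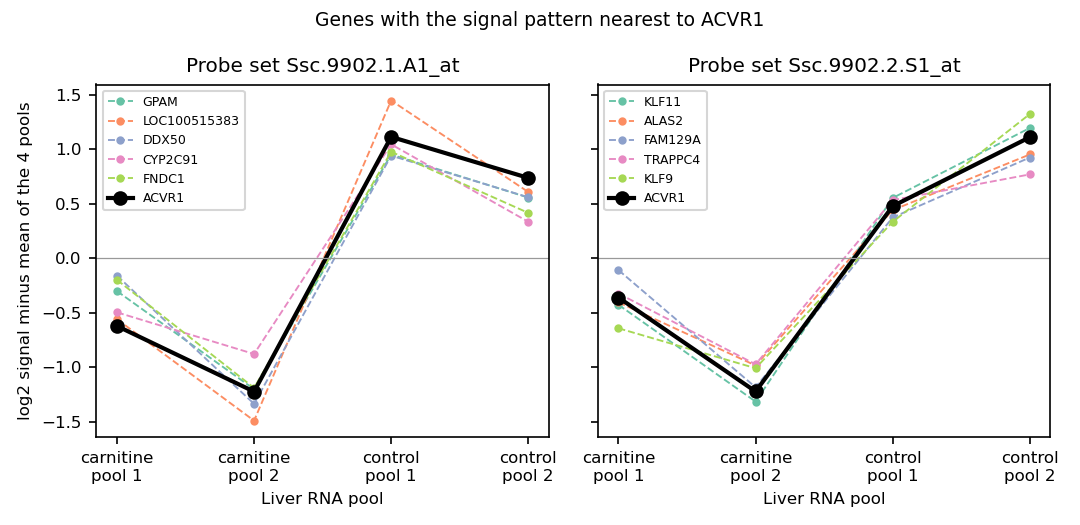
Log2 signal minus its mean over the 4 pools for each ACVR1 probe set (black) and the 5 named genes nearest to it (colours), with lines that only join the points of a probe set. In both panels the carnitine pools lie below 0 and the control pools above, and the order of the control pools differs between the panels.

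ALAS2, the enzyme that starts heme synthesis in red cell precursors, crosses iron handling and heme synthesis. It gave 358 and 240 with carnitine against 644 and 917 in controls, a log2 fold change of -1.39 (SE 0.30). Since it was picked for its likeness to ACVR1, its direction was given by that choice and no test is reported. Of the other red cell markers measured, AHSP gave 104 and 34.8 against 105 and 144, and HBB, a hemoglobin chain, was level at 310 and 299 against 278 and 301. The summed signal of these 3 markers was 771 and 574 against 1027 and 1362, and it was ALAS2, named here for its likeness to ACVR1, that separated the diets. AHSP was lower with carnitine by a small margin between its nearest pools, and HBB overlapped. Whether red cell RNA was present cannot be read without detection calls, and its part in the ACVR1 difference was not tested.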

How the data were processed

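Liver RNA pools were measured on 4 single-colour Affymetrix porcine GeneChips. The authors deposited linear MAS5 signal intensities that they had scaled to the same trimmed mean on every array. Tools in the submitters' processing notes are MAS5 5.0, Affymetrix Expression Console 1.1 and GCOS 1.1.2. No genome build is named, so no coordinates are given. Arrays have no read depth, their number limits the precision, and signal over background is unknown without detection calls.

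Intensities were log2 transformed, without a pseudocount or a filter. After 124 control probe sets were left out, 23999 were fitted with limma 3.58.1 in R 4.3.3 (lmFit, eBayes with a variance trend, 2 residual degrees of freedom) and adjusted by the Benjamini-Hochberg method over all of them, a fit that was also tested on simulated data. In the platform annotation 10069 probe sets have 1 symbol, 198 list several, and 13732 are unnamed. Several probe sets of a gene were reported one by one for members, and by the brightest for other genes. No permutation of 2 pools against 2 can reach the 0.05 threshold, so none was run.

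Members, lists and rules were chosen with earlier results of these data known. Named are all members, of each of the 4 lists the 4 genes with the smallest p, a fixed set of hepcidin and iron genes wherever measured, and the 5 probe sets nearest to each ACVR1 probe set. BMPR1A, ACVR1B, ACVR2B, ID2, ID3, ID4, BMPR1B, SCARA5, GALP, CRP, ITIH4, FGG, AHSP and HBB were named after their values were seen. So were ACTA2, COL1A2, C1QA, C1QC and CD14. Alternatives were quantile normalization, median centring, a floor at the 25th percentile, an offset of 64, filters on signal, other variance models, the methods' analysis of variance, arithmetic means, the replicate number as a block and leaving out each pool.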

Additional observations from a re-analysis of the deposited data

How the results depend on the processing

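The ACVR1 probe sets gave log2 fold changes from -2.15 to -1.55 and from -2.02 to -1.16, but since ACVR1 was chosen for this difference and its pools do not overlap, leaving out a pool could not turn the sign. HAMP, FTH1, TF (without a synonym) and the brighter FTL probe set took both signs. With each pool left out, the number of probe sets past the adjusted p ran from 0 to 8 in place of 1 (0 without carnitine pool 1 or 2), and at an unadjusted p from 984 to 3003 in place of 2076. The count past the adjusted p was 0 in the analysis of variance and without the variance trend, 2 with the floor, and 3 and 2 with filters that kept signals above the median or above the 75th percentile, the last of which left 779 at an unadjusted p. At 2-fold, 3828 probe sets became 889 with the floor, 265 with the offset, and 438 and 187 with the filters.

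For the 66 genes of the lists, the 5 at an unadjusted p became 3 in the analysis of variance, 2 without the trend, 2 with the filter at the 75th percentile, and 2 to 11 with each pool left out. The 8 at 2-fold became 3 with the floor, 1 with the offset, and 2 and 1 with the filters, which remove dim genes. The labels only share replicate numbers, and deviations of same-numbered pools did not correlate (r = 0.0032 over the brighter probe sets). With the replicate block 106 probe sets passed the adjusted p, and 1 and 11 of the list genes passed the adjusted and the unadjusted p, the 1 being ID1. Causes were not tested. HAMP moved most among the members although it is not dim, and 2 pools per diet limit every value.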

Other observations

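HAMP was lowest in control pool 2, and so were 3 of 15 other plasma proteins (CRP, ITIH4 and FGG) and 2 of 11 genes of the interleukin 6 and STAT3 list. CRP, the C-reactive protein, and ITIH4, both acute phase proteins, were singled out after their values were seen. CRP gave signals of 11643 in control pool 1 and 4016 in control pool 2, against 12220 and 10397 in the carnitine pools. ITIH4 gave 28865 and 17187 in the control pools and 23638 and 28679 in the carnitine pools. HP, another acute phase protein, had its lowest signal in carnitine pool 2, with 51684 and 44328 in the control pools and 44644 and 40332 in the carnitine pools. Of the 15 plasma proteins 11 were lowest in carnitine pool 2. These values rest on single pools and have no test.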
